A study of Sus scrofa with 4 samples.

Results

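AP-1 is a transcription factor built from pairs of basic leucine zipper proteins, and the 10 genes described here encode its subunits: JUN, JUNB and JUND, FOS, FOSB, FOSL1 and FOSL2, ATF3, and BATF and BATF2. They were chosen by name, because c-JUN stands in the title of the series, and with earlier results of these data known. They are 10 of 16320 named protein-coding gene entries of the pig annotation (RefSeq, Sscrofa11.1). Each peak that overlapped one of these genes or lay within 100 kb of it was taken, with the distance measured from the nearest edge of the peak to the nearest end of the gene. This gave 63 of 28283 peaks in the high bile acid group and 8 of 5735 peaks in the low bile acid group.

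The peaks mark histone H4 lysine 12 lactylation (H4K12la), a lactate-derived acyl group on the tail of histone H4, mapped by chromatin immunoprecipitation and sequencing in the liver of female Sus scrofa, sows in late gestation. The series holds 4 samples, an immunoprecipitated and an input library from a low (normal) bile acid group and the same from a high bile acid group. No genotype, breed or age is given, the cause of the high bile acids is not stated, and how many sows entered a library is not stated. Each group has 1 immunoprecipitated library, so differences between the groups have no replicates behind them and were not tested. The libraries and lists are called low and high here.

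Histone lactylation is best known from active promoters and enhancers, where it accompanies high glycolysis. JUN proteins bind DNA as pairs with each other or with FOS proteins, whereas FOS proteins need a JUN partner. ATF3 and the BATF proteins join the same pairs and often hold back or redirect their activity. In liver, JUN and FOS belong to the immediate-early genes, which are switched on within minutes of injury, growth signals or stress, and JUN is needed for liver development and regeneration.

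The immunoprecipitated libraries held 6.71 (high) and 7.37 (low) fragments per kb, as recovered from the peak statistics, where the kb follows the genome size that the caller was given. High-list peaks were 4.93 times as many as low-list peaks. Of the high list, 2.15% had a q under 0.05, against 0.227% of the low list, where q is the false discovery rate given by the authors' caller for a peak over its own input. The liver label was checked against 20 hepatocyte marker genes, of which 7 (35%) had a high-list peak and 2 (10%) a low-list peak in the gene or within 1 kb, where 48.6% and 16.2% of all named coding genes did. Of 10 endothelial markers 8 and 2 had one, above these shares in both lists. Of 10 Kupffer and myeloid markers it was 3 and 2, of 10 stellate and fibroblast markers 2 and 2, and of 8 cholangiocyte markers 2 and 1. Gene length was not matched, and a lactylation peak is not a measure of expression, so these counts neither show nor exclude a cell type.

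High-list peaks overlapped 6 of the 10 AP-1 genes: JUN, FOSB, FOSL1, FOSL2, ATF3 and BATF2. JUNB, JUND, FOS and BATF had none. No low-list peak overlapped any of the 10. Among named coding genes no longer than ATF3, the longest member at 57420 bp, 35.2% had an overlapping high-list peak and 8.14% an overlapping low-list peak. Of the 7 members of at most 10 kb, 4 (JUN, FOSB, FOSL1 and BATF2) had an overlapping high-list peak, where 21.4% of all named coding genes of that length did. None of the 7 had an overlapping low-list peak, against 3.4%. With 10 genes and a single library these shares are a description, and no test of the difference was made.

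With the window of 100 kb, each of the 10 members had a high-list peak, as did 92.6% of all named coding genes. In the low list 4 members had one (JUNB, FOSB, FOSL1 and BATF), against 57.5% of all named coding genes. A high-list peak without any low-list peak in the window was found for 6 members, JUN, JUND, FOS, FOSL2, ATF3 and BATF2, and for 36.8% of all named coding genes. The number of high-list peaks per member ran from 2 at FOS to 10 at BATF2, with a median of 7, where the median over all named coding genes was 4. The low list gave 0 to 4 peaks per member, with a median of 0 against 1. Other annotated genes in the window ran from 1 at JUN to 20 at JUNB, and these medians were not matched for them.

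**Figure D1:**
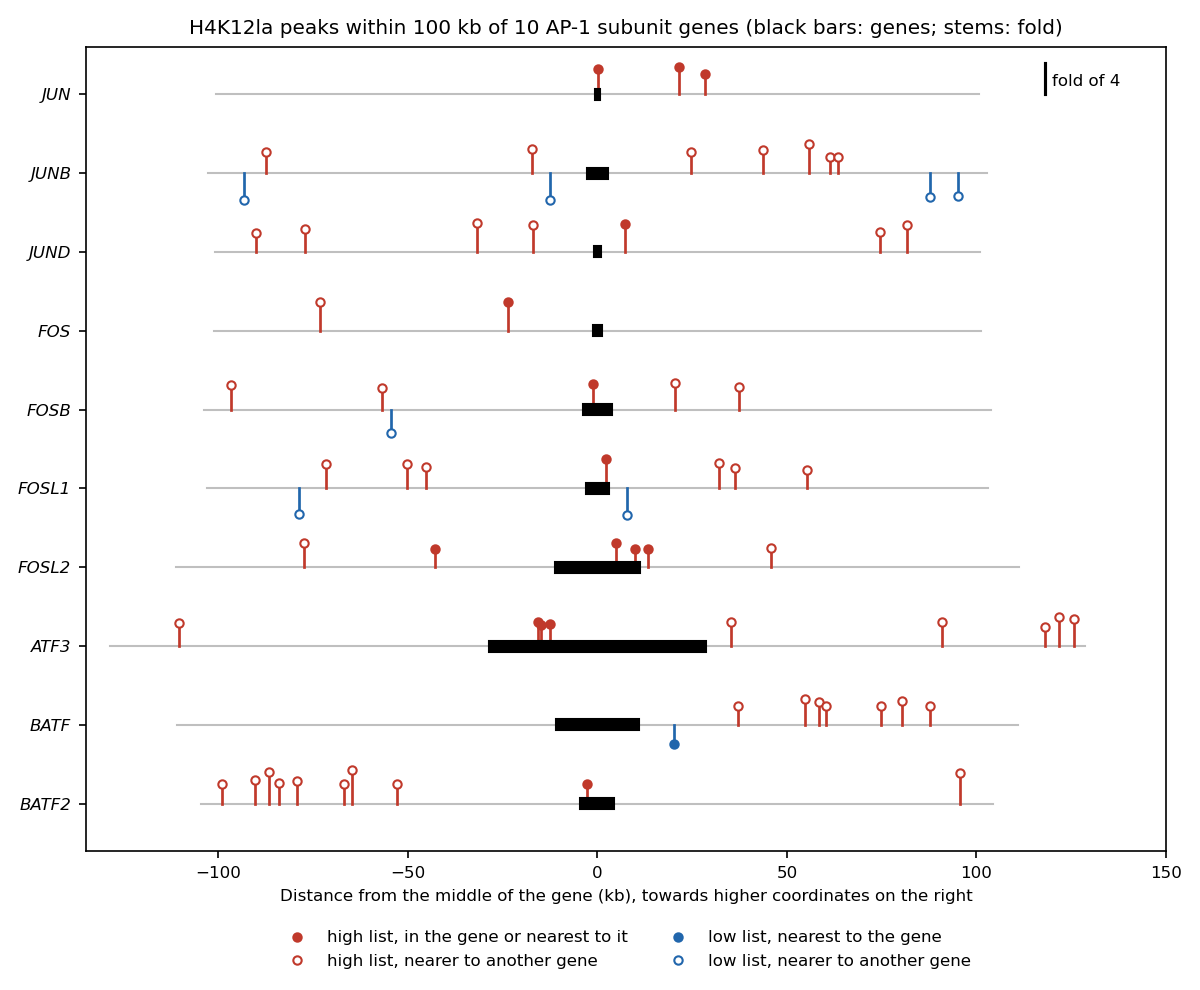
Positions of the peaks around each of the 10 AP-1 genes, in kb from the middle of the gene, with genes as black bars, the window as a grey line and the fold of each peak as the height of its stem (high list upward, low list downward). Filled points are peaks that overlap the gene or lie nearest to it, and open points are nearer to another gene; JUN has 3 filled points and no open one, while each of the 7 high-list points at BATF is open.

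Most distal peaks lay nearer to a neighbouring gene than to the AP-1 gene. Of the 54 high-list peaks outside the members, 48 lay nearer to another annotated gene (88.9%), and 39 of these 54 overlapped that gene. Of the 8 low-list peaks, 7 lay nearer to another gene. Around all named coding genes the same held for 92.5% (high list) and 91.2% (low list) of distal gene and peak pairs, so the members' shares were near the background. This left 15 high-list peaks that overlapped a member or had it as the nearest gene, spread over 8 members, and 1 low-list peak, near BATF. JUNB and BATF had no such high-list peak. The share of all named coding genes that had a peak of this kind was not computed for either list. The member counts were drawn from 28283 high-list and 5735 low-list peaks and have no background beside them. They therefore show no contrast particular to the AP-1 genes.

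**Figure D2:**
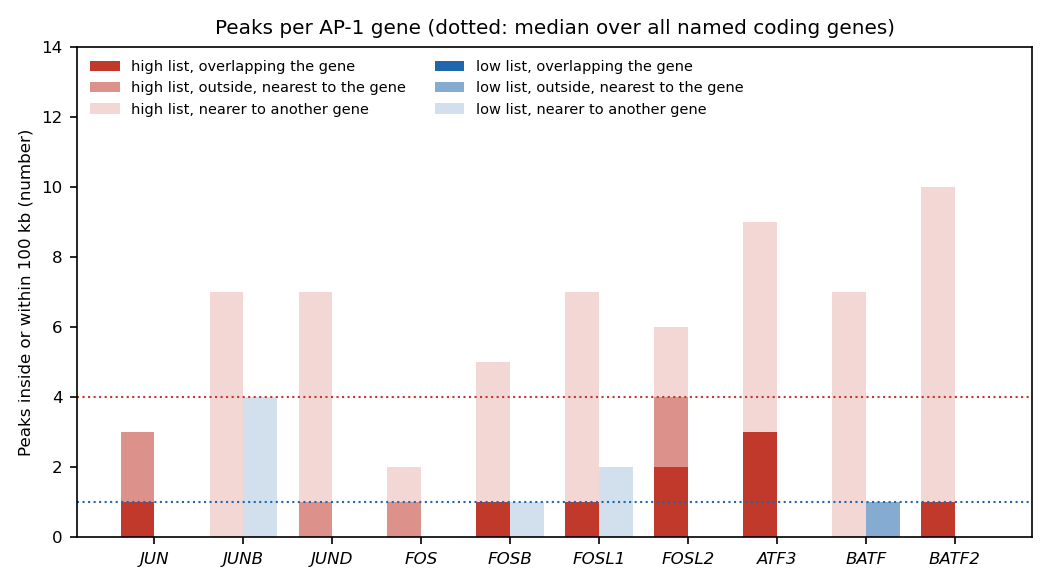
Number of peaks inside or within 100 kb of each AP-1 gene in the high list (red) and the low list (blue), split by shade into peaks overlapping the gene, peaks outside with the gene as their nearest, and peaks nearer to another gene. Dotted lines give the medians over all named coding genes, 4 in the high and 1 in the low list; the darkest segments, 9 peaks in all, stand at 6 genes of the high list.

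JUN lies at chromosome 6, 153686425 to 153687635, and with 1211 bp is the shortest of the 10 entries. Its surroundings were the emptiest, with MYSM1, 67574 bp away, as the one other annotated gene within 100 kb. JUN carried 3 high-list peaks and no low-list peak. The first spans 153686914 to 153687402 and covers 40.4% of the entry, with the summit 704 bp from the end of lower coordinate and 506 bp from the other. The table of genes holds no strand, so which of these ends is the transcription start was not determined, and JUN is known as a gene without introns. This peak had 12 fragments at the summit (95% Poisson interval 6.20 to 21.0) over 3.08 expected, a fold of 3.19 and a q of 0.157. The fold is the value of the authors' caller at the summit, which equals fragments plus 1 over expected plus 1, with the low library's fragments scaled first. The JUN fold was higher than that of 72.2% of all high-list peaks. The other 2 peaks lay on the side of higher coordinates, outside any annotated gene. The one at 153708509 to 153708815, 20874 bp from JUN, was the strongest of the locus with a fold of 3.49 (q 0.139), on 11 fragments over 2.44 expected. The one at 153715216 to 153715650, 27581 bp away, had a fold of 2.58 (q 0.50) on 8 fragments over 2.49. JUN was their nearest gene by margins of 11.98 kb or more, MYSM1 being 46394 and 39559 bp from them. The nearest low-list peak lay 153245 bp from JUN, with a fold of 2.84.

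JUNB, whose protein can restrain the activity of JUN, lies at chromosome 2, 66214086 to 66219435, among 20 other annotated genes within 100 kb. It had 7 high-list peaks and 4 low-list peaks in the window, and each of these 11 was nearer to another gene. The high-list folds were 2.68 in SYCE2, 3.01 in RNASEH2A, 2.63 near BEST2, 2.89 in ASNA1 and 3.65, 2.08 and 2.08 in TNPO2. The low-list folds were 3.42 in SYCE2, 3.42 in RNASEH2A, 2.997 in DHPS and 2.84 in WDR83. SYCE2 and RNASEH2A thus carried a peak in both lists, 5521 and 4345 bp apart. The closest peak to JUNB itself was the low-list peak in RNASEH2A, which encodes the catalytic subunit of ribonuclease H2, at 9755 bp, and the closest of the high list was 14523 bp away in the same gene. JUNB was the member with the most low-list peaks.

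JUND, the most constantly expressed of the JUN genes in many tissues, lies at chromosome 2, 59530991 to 59532846. It had 7 high-list peaks, none of them overlapping the gene, and no low-list peak in the window. The closest spans 59538765 to 59539345, 5919 bp from JUND, with 11 fragments (5.49 to 19.7) over 2.41 expected, a fold of 3.52 and a q of 0.139. It lies almost midway between JUND and KIAA1683, which is 5980 bp from its other edge, and measured from the summit it is nearer to KIAA1683, at 6152 against 6327 bp. The highest fold of the window, 3.64 (q 0.0735), belonged to a wide peak of 1132 bp in LSM4, 30292 bp from JUND, on 13 fragments. The other 5 were nearer to LSM4, PGPEP1, RAB3A or MPV17L2, with folds of 2.41 to 3.40.

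FOS, the classic partner of JUN, lies at chromosome 7, 98449508 to 98451971. It had the fewest high-list peaks of the 10 genes, 2, and no low-list peak. The nearer spans 98426805 to 98427209, 22299 bp from FOS on the side of lower coordinates and outside any gene. It had 13 fragments (6.92 to 22.2) over 2.85 expected, a fold of 3.64 and a q of 0.0735. FOS was its nearest annotated gene, and the noncoding RNA gene LOC110261632, which lies 1456 bp from FOS, was the next at 26218 bp. The other, 71859 bp from FOS, had a fold of 3.64 (q 0.109) and lay nearer to TMED10, at 14626 bp. Both folds stood above the high-list median of 2.90.

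FOSB, at chromosome 6, 51836780 to 51844531, encodes a FOS protein with several splice forms. Its single overlapping peak spans 51839197 to 51839719 in the high list, with 10 fragments (4.80 to 18.4) over 2.35 expected, a fold of 3.28 and a q of 0.211. The summit stood 2553 bp from the end of lower coordinate. The other 4 high-list peaks were inside neighbours, with folds of 3.12 in ERCC2, 2.69 where CD3EAP and ERCC1 overlap, 3.35 in RTN2 and 2.84 in VASP. The low list held 1 peak in the window, of fold 2.97 (q 1), inside ERCC1, a gene of nucleotide excision repair. It lay 1751 bp from the high-list peak in the same gene, the closest approach of the 2 lists near any member.

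FOSL1, which encodes FRA1, carried the strongest of the 9 overlapping peaks. The gene lies at chromosome 2, 6430158 to 6436173, and the peak spans 6435344 to 6435643, with the summit 801 bp from the end of higher coordinate. It had 12 fragments (6.20 to 21.0) over 2.44 expected, a fold of 3.78 and a q of 0.0735, and its fold was higher than that of 95.3% of the high list. CCDC85B begins 614 bp beyond that end of FOSL1 and lies 1144 bp from the peak. A low-list peak of fold 3.33 (q 1) lay 4644 bp from FOSL1 on the same side, inside FIBP, and 5174 bp from the overlapping high-list peak. The second low-list peak, of fold 3.27, was nearest to SART1. The other 6 high-list peaks were inside SART1, TSGA10IP, MUS81 or SNX32, with folds of 2.29 to 3.20.

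FOSL2, which encodes FRA2, had the most peaks of its own. It lies at chromosome 3, 110820403 to 110842903, with 2 other annotated genes within 100 kb, and carried 6 high-list peaks and no low-list peak. Of these, 2 overlapped the gene, at 110836226 to 110836705 with a fold of 3.06 (q 0.258; 9 fragments over 2.27 expected) and at 110841185 to 110841910 with a fold of 2.29 (q 0.50; 10 fragments over 3.80). A further peak lay 1679 bp beyond the end of higher coordinate, with a fold of 2.34, and another 31479 bp from the end of lower coordinate, with a fold of 2.29. FOSL2 was the nearest gene for both, and the remaining 2, of folds 3.02 and 2.50, were nearer to PLB1 and BABAM2. At a higher stringency FOSL2 differed from the other members: it had no peak among the 5735 high-list peaks of smallest p.

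ATF3, a stress-induced member that often acts as a repressor, lies at chromosome 9, 130772259 to 130829678. It had 9 high-list peaks and no low-list peak in the window. Of these, 3 overlapped the gene close to each other, starting at 130784906, 130785932 and 130788208, so that they fell within 3.7 kb of sequence, 22.2 to 28.2% of the way along the gene from the end of lower coordinate. Their folds were 3.09 (q 0.258), 2.68 (q 0.50) and 2.86 (q 0.326), on 9, 7 and 10 fragments. The peak closest to the gene from outside, at 6199 bp with a fold of 3.01, was inside the noncoding RNA gene LOC102164427. With noncoding genes set aside, ATF3 would be its nearest gene. The 4 farthest peaks on that side, with folds of 2.44 to 3.65, also overlapped noncoding RNA genes. On the other side, a peak of fold 2.96 lay 8328 bp from BATF3, a further basic leucine zipper gene, and 81495 bp from ATF3.

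BATF and BATF2 encode small proteins best known from immune cells, where they pair with JUN proteins. BATF lies at chromosome 7, 98670211 to 98692230, and, like JUNB, had its nearest peak in the low list. That peak spans 98701254 to 98701680, 9024 bp from BATF and 16639 bp from FLVCR2, with 8 fragments (3.45 to 15.8) over 2.24 expected, a fold of 2.48 and a q of 1. The 7 high-list peaks in the window each overlapped FLVCR2, a membrane transporter gene, between 25998 and 76487 bp from BATF, with folds of 2.34 to 3.34. BATF2, at chromosome 2, 7180019 to 7188996, had 10 high-list peaks and no low-list peak. The peak in the gene spans 7181673 to 7182046 and was the weakest best peak among the 6 overlapped members, with a fold of 2.56 (q 0.50) on 8 fragments. The strongest peak near any member stood in this window, but 60165 bp from BATF2, inside the coding gene LOC110255271. It spans 7119479 to 7119854, with a fold of 4.23 and a q of 0.0316, and was the single peak of the 71 with a q under 0.05. A peak of fold 4.03 (q 0.0735) near TMEM262 and one of 3.87 (q 0.0735) in ATG2A followed.

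**Figure D3:**
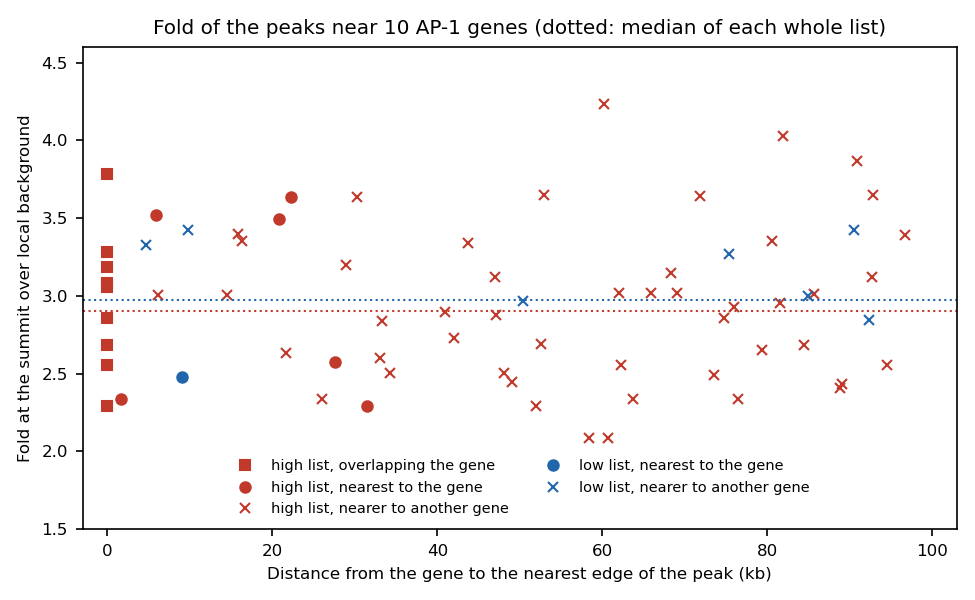
Fold at the summit of the 71 peaks against their distance from the AP-1 gene in kb (squares overlap the gene, circles have it as nearest gene, crosses are nearer to another gene; red high list, blue low list). Dotted lines give the list medians, 2.90 (high) and 2.98 (low); peaks overlapping the genes span 2.29 to 3.78, and the points above 4 are crosses at more than 60 kb.

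Peaks near the AP-1 genes were of ordinary strength for their lists. The 63 high-list folds ran from 2.08 to 4.23 with a median of 2.93, where the whole list had 2.90, and their widths had a median of 386 bp against 355 bp. The 9 peaks overlapping members had a median fold of 3.06 and the 54 others 2.91. A fold of 4 or more was reached by 2 of the 63, both near BATF2, and by 3.15% of the whole list. Of the 8 low-list peaks 0 reached it, against 1.38%. In the low list the 8 folds ran from 2.48 to 3.42 with a median of 3.13, against 2.98 in the whole list, and each had a q of 1. Ordered by the best overlapping peak, FOSL1 (3.78) came first, then FOSB (3.28), JUN (3.19), ATF3 (3.09), FOSL2 (3.06) and BATF2 (2.56). These rest on 8 to 12 fragments with overlapping intervals, so no neighbours in this order are set apart.

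By distance, high-list peaks numbered 9 over the 0.136 Mb of the genes themselves, 3 up to 10 kb outside them, 21 from there to 50 kb and 30 from 50 to 100 kb. Per Mb of sequence, the 3 outer bands held 15.0, 26.2 and 30.0 peaks, against 24.0, 20.7 and 19.7 around all named coding genes. Over the genes themselves the density was 66.4 per Mb against 14.8, where a peak counts with any overlap, which weighs more per Mb for short genes. The band next to the genes was thus thinner around the members, and the genes and the outer bands denser. In the low list the genes held 0 per Mb against 2.92, and the 3 outer bands held 3, 0 and 5 peaks, or 15.0, 0 and 5.0 per Mb against 4.31, 3.76 and 3.68, so there the band next to the genes was the denser one. These densities rest on few peaks and were not tested. At the edge of the window, the farthest peak taken in lay 96745 bp from ATF3 (fold 3.39), and the nearest left out lay 100503 bp from FOS (fold 2.08).

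No high-list peak overlapped a low-list peak within the 10 windows, and no pair of summits lay within 1 kb of each other. In the whole lists 3.63% of low-list peaks and 0.732% of high-list peaks overlapped one of the other list. A call in 1 list does not by itself show a difference in occupancy. For each peak, the fewest fragments that would have passed a p of 0.01 in the other library over the same expected number were computed. For the JUN peak this was 10 fragments in the low library, inside the interval of 6.20 to 21.0. It was 8 for FOSL1, for the peak near FOS and for that near JUND. The interval lay at or above this number for 0 of the 63 high-list peaks, as for 0.325% of the whole high list, and for 0 of the 8 low-list peaks, as for 7.1% of the whole low list. No high-list peak near a member had enough fragments to meet this, since the highest lower limit was 6.92 and the smallest number needed was 7. Counts of the low library at the high-list peaks were not analysed here, so these values neither show a difference between the groups nor its absence.

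**Figure D4:**
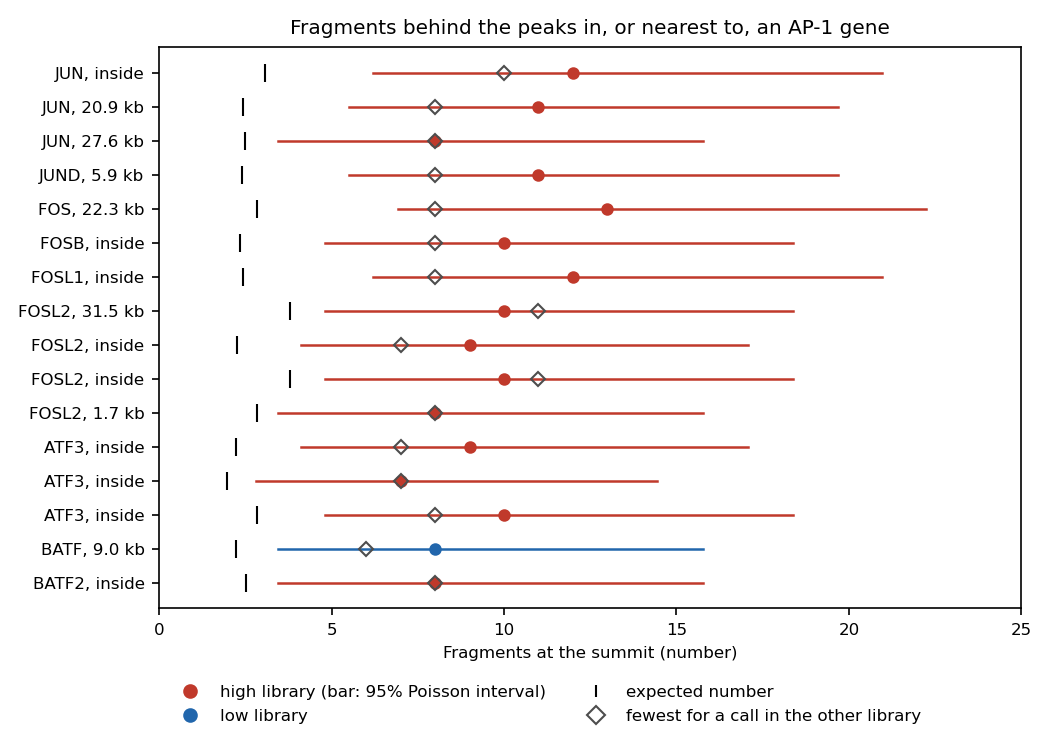
Fragments at the summit (points) with 95% Poisson intervals (bars) for the 15 high-list peaks and 1 low-list peak that overlap an AP-1 gene or have it as nearest gene, with the expected number (ticks) and the fewest fragments for a call in the other library (diamonds). Each diamond lies within its bar, at JUN at 10 fragments against 12 observed.

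The high list was also reduced to the 5735 peaks of smallest p, the length of the low list. It then held 17 peaks in the windows of 9 members, against 8 peaks at 4 members in the low list, where 58.4% and 57.5% of all named coding genes had a peak in the window. JUN, FOSB and FOSL1 kept their overlapping peaks and ATF3, FOSL2 and BATF2 lost theirs. Among named coding genes no longer than ATF3, 10.5% had an overlapping peak at this length. JUN kept 2 of its 3 peaks and FOS both. JUND kept 3 of 7, and another, near MPV17L2, is 1 of 1491 high-list peaks that share the last p taken, where ties were broken by fold and then position. With the tied peaks kept, 6991 in all, JUND had 4 peaks and the windows held 18.

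The wider AP-1 circle was counted for peaks in the gene or within 1 kb, which 48.6% (high list) and 16.2% (low list) of all named coding genes had. The same count was 6 of 10 and 0 of 10 for the members. Of 11 other AP-1 family genes, 6 had such a high-list peak, among them NRL with a fold of 4.23 (q 0.0316), MAFA with 3.39, MAF with 3.36, MAFG with 2.34 and ATF7 with 2.08. MAF, which encodes a large MAF protein, also held the single low-list peak of this list, of fold 2.48. BATF3, JDP2 and ATF2 were among the 5 without one. JDP2 lies between FOS and BATF on chromosome 7.

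Upstream of AP-1, the JNK, ERK and p38 kinases phosphorylate JUN or the factors that switch on FOS. Of 19 such kinases and factors, 9 had a high-list peak and 5 a low-list peak. The highest low-list fold among them, 3.27, stood in a gene that had no high-list peak inside it or within 1 kb. The highest folds in the high list were 3.70 for CREBBP, a histone acetyltransferase and coactivator of AP-1, 3.45 for MEF2D and 3.41 for SRF, which binds the serum response element of FOS. MAPK14, which encodes p38 alpha, had 3.12 in the high and 3.002 in the low list, and MAPK10, a JNK gene, 2.60 and 2.89, in each case at different places in the gene.

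Immediate-early genes that are induced alongside JUN and FOS had a high-list peak in 9 of 23 cases and a low-list peak in 1, SGK1 with 2.91. The high-list genes were led by GADD45B, a stress-response gene, with 4.03 (q 0.0735), NR4A2, an orphan nuclear receptor, with 3.77, DUSP5, a phosphatase of ERK, with 3.58, and KLF10, BTG2 and KLF6 with 3.44, 3.42 and 3.23. Of 16 genes known as AP-1 targets, 4 had a high-list peak: HBEGF, a growth factor of the EGF family, with 4.63 (q 0.0081), CD44 with 3.52, EZR with 3.39 and CCND1 with 2.98. EZR was the one target with a low-list peak, of fold 2.73. The high-list share of the other AP-1 family genes (54.5%) and the low-list share of the kinases and factors (26.3%) were above those of all named coding genes, and the other 6 shares of these 4 lists were below. Gene length was not matched.

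**Figure D5:**
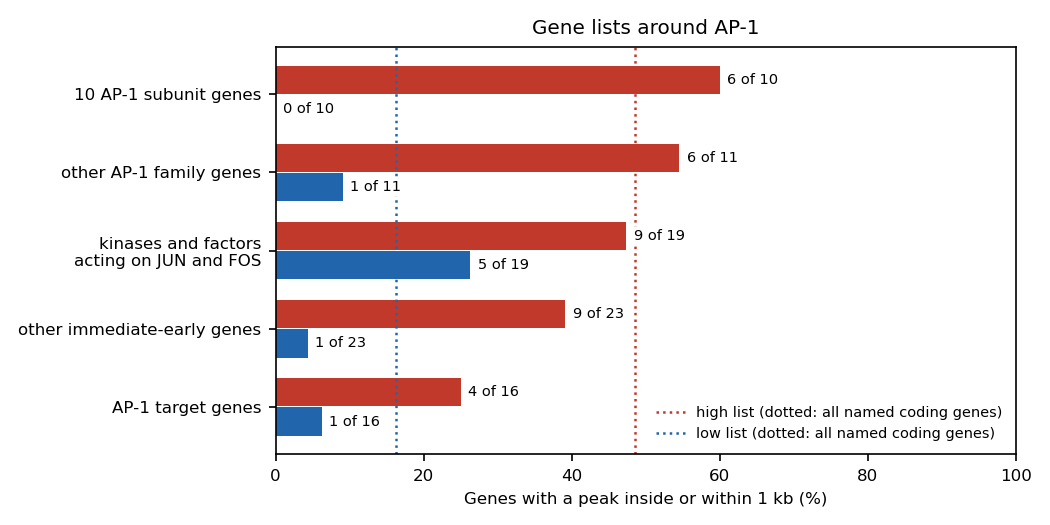
Share of genes with a peak in the gene or within 1 kb for the 10 AP-1 genes and 4 related gene lists in the high (red) and low (blue) list, with the number of genes beside each bar. Dotted lines mark all named coding genes, 48.6% and 16.2%; the AP-1 genes reach 6 of 10 in the high list and 0 of 10 in the low list.

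The genes most like JUN were looked for among 126 other named coding genes of at most 5 kb that had an overlapping high-list peak and no low-list peak within 100 kb. Likeness was the difference between the highest fold of an overlapping high-list peak and that of the JUN peak. The closest were ZNF32 (fold 3.20), PSMB11 (3.20), NAT14 (3.20), APEX1 (3.16) and PENK (3.22), each within 0.040 of JUN. Their peaks covered 10.1 to 28.0% of the gene, less than the 40.4% at JUN. This share depends on gene length, which was 1211 bp for JUN and 2899 to 4907 bp for ZNF32, NAT14, APEX1 and PENK. PSMB11, with 1120 bp, is shorter than JUN, and its peak runs past the end of the gene.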

How the data were processed

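The submitters' processing notes list MACS2 2.1.0, with bcl2fastq 2.17, Trimmomatic 0.33 and Bowtie 1.1.2 beside it, and the builds hg38 and Sscrofa11.1. Peaks lay on pig chromosomes 1 to 18, X and Y, and pig coordinates were used. The sources used here give no cutoff for the caller, and neither list held a p-value above 0.00989. Each deposited peak carries the authors' fold (a ratio to the local background, with 1 added to both numbers), its −log10 p-value and −log10 q-value, and a display score, which was not used. Peaks were called per library, and the input libraries entered through the caller.

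RefSeq's Sscrofa11.1 table supplied gene positions, without strand or exons. Fragments were solved from fold and p for each peak, which gave whole numbers for 100% of peaks within 0.002 of the −log10 p. The low library's pileup had been multiplied by 0.881. This recovery and the distances were tested on simulated data. Intervals are exact Poisson intervals and cover counting error only, since amplified reads are not independent molecules.

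The members and lists were chosen with earlier results of these data known. Of 140 listed symbols, 4 were not matched. All members were named. Other genes were named as neighbours of a distal peak, as the first 6 of a list by fold, or as like JUN; JDP2 and ATF2 were added after their values were seen. 1 gene that this rule names is not reported here. No sequence table was used here, so the planned promoter motif search was not run. Computation used Python 3.11.15, numpy 2.4.6, pandas 2.3.3 and scipy 1.17.1.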

Additional observations from a re-analysis of the deposited data

How the results depend on the processing

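No paired analysis was possible because there is a single immunoprecipitated library in either group and the labels carry no replicate numbers. High-list summits near the members rest on 7 to 13 fragments. The counts below are, in order, high-list peaks, low-list peaks, and distal peaks of both lists nearer to another gene, which were 63, 8 and 55 in the windows of 100 kb. With windows of 10 kb they were 12, 3 and 3, with 50 kb 33, 3 and 20, and with 200 kb 110, 14 and 107. At q under 0.05 they were 1, 0 and 1, and at a fold of 4 or more 2, 0 and 2. The members with a peak in the window were then 1 in the high and 0 in the low list at either threshold, and 0 had a high-list peak in or within 1 kb of the gene. These falls come with shorter lists and windows. Of all high-list peaks, 2.15% had a q under 0.05 and 3.15% a fold of 4 or more, and of all low-list peaks 0.227% and 1.38%. The share of all named coding genes was not computed at either threshold, so these member counts have no background beside them. With the high list at the length of the low list, 17 high-list peaks and 18 distal peaks nearer to another gene were left, and 3 members had a high-list peak in or within 1 kb of the gene. With peaks tied at the last p kept, chosen after seeing the data, these were 18, 19 and 3. For the shortened high list, the share of all named coding genes with a peak in or within 1 kb was not computed. The remaining alternatives kept their counts within 1.5 times, including distances from the summit (56 peaks nearer to another gene), named coding genes as the other genes (54) and other rules of overlap between the lists (0 pairs).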
